A study of Mus musculus with 30 samples.

Results

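Lysosomes are the acidic compartments in which cells break down proteins, lipids and glycans, and autophagy is the route that delivers cytoplasmic material to them. The 33 genes described here were listed by name for their known place in lysosomes and autophagy, and all 33 were found among the 78334 gene identifiers of the deposited count table. They comprise 8 cathepsins, 6 lysosomal membrane proteins, 6 glycosidases, 6 proteins of lipid and peptide processing, 3 subunits of the proton pump, the transcription factor Tfeb and 3 autophagy genes. Of the 33, 33 passed the filter on low counts in sequencing run 2, where 15350 genes were tested. In run 3, where 15103 genes were tested, 32 passed. The exception was Ctsk, the collagen-degrading cathepsin of osteoclasts, which stood between 0 and 0.514 CPM in every library of run 3.

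The study measured gene expression by RNA sequencing in 30 libraries of cultured mouse aortic smooth muscle cells in 9 groups. The series text calls the cells wild type, and the labels used here give no strain or age. The growth protocol speaks of mouse and rat cells, and the organism label is mouse. All cells were kept for 48 h in serum-free medium with transferrin, ascorbic acid and selenite, and the protocol gives at least 24 h for all transfections. CASC15 is a long noncoding RNA, and the study altered it in cells left untreated or given a growth stimulus. Run 2 held untreated cells only: a knockdown control GapmeR (an antisense oligonucleotide that directs RNase H to its target, n = 2), cells labelled as knockdown of total CASC15 (n = 2), an overexpression control (n = 3) and overexpression of total CASC15 (n = 3). Run 3 held 5 groups of 4: a knockdown control and a knockdown of long CASC15, each untreated and each given human angiotensin II at 10 ng/ml for 24 h, and the knockdown control given human PDGF-BB at 10 to 30 ng/ml for 24 h. The labels name a GapmeR for the control of run 2 and no reagent for the control of run 3, and they do not define total and long CASC15. Each library also carries a batch label, P16 to P19, with at most 1 library per group and batch. The labels do not say whether libraries of a group came from separate animals, so p-values measure the spread between these samples, which may be technical.

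Within the lysosome, cathepsins cut proteins, glycosidases trim sugars from glycoproteins and glycolipids, and saposins, ceramidase and the NPC proteins handle lipids, all at the low pH that the V-ATPase proton pump maintains. Membrane proteins such as LAMP1 and LAMP2 line the compartment. The transcription factor TFEB activates many of these genes together through the CLEAR element, a palindrome built on the E-box CACGTG, and it is held in the cytoplasm by mTORC1 when nutrients are plentiful. In autophagy, LC3 and GABARAP proteins are attached to the autophagosome membrane and p62, encoded by Sqstm1, ties cargo to them. In vascular smooth muscle, PDGF-BB drives proliferation and migration, and angiotensin II drives contraction and growth.

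Promoters of 28 of the 33 genes were matched by symbol in RefSeq (GRCm38.p6, 250 bases before to 50 after a start site). Ctsb, Ctsh, Npc1, Asah1 and Atp6v1h were not among the matches. CACGTG, read on both strands of which it is its own reverse complement, lay in the promoter of 12 of the 28 (42.9%), against 11.6% of the 10333 genes tested in run 3 that had a promoter and 8.09% of all 27025 genes with one. The longer TCACGTGA, which contains CACGTG, lay in 7 of 28 (25.0%), against 2.20% and 1.1%. A match describes these letters and is not a binding site. The stretches below are shown because they carry these letters in front of genes whose values follow. Each is the strand of the gene, 5′ to 3′, with the motif in capitals. The first 7 have TCACGTGA in capitals, and Gla has 2 copies on separate lines.
Atp6v1a, chr16:44139364-44139411, minus strand: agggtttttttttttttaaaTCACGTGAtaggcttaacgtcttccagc
Cln3, chr7:126583331-126583378, minus strand: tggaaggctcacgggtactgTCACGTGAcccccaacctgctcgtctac
Ctsa, chr2:164833740-164833772, plus strand: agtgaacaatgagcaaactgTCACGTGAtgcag
Ctsd, chr7:142387899-142387946, minus strand: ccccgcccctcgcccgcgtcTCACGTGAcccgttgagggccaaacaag
Gla, chrX:134601206-134601253, minus strand: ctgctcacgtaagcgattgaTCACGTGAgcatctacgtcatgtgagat
Gla, chrX:134601173-134601220, minus strand: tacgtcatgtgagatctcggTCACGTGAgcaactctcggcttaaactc
Mcoln1, chr8:3500453-3500500, plus strand: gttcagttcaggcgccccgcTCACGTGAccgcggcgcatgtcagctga
The last 3 have CACGTG in capitals, and Lamp1 holds 4 copies within 81 bases.
Lamp1, chr8:13159080-13159160, plus strand: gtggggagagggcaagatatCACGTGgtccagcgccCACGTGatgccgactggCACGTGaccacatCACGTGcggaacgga
Ctsf, chr19:4855066-4855111, plus strand: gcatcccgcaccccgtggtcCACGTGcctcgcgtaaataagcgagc
Ctsl, chr13:64370731-64370770, minus strand: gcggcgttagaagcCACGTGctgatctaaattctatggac

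Libraries held 15771490 to 30362047 expected counts. No source used here pairs CASC15 with a mouse gene of the table. The lncRNA gene 2610307P16Rik was read as the target because it lies near Sox4 and was raised in the overexpression libraries, so its rise there tests nothing. It stood at 5.52 ± 0.530 CPM (library-size scaled counts, mean ± SD) in untreated controls of run 3 and at 2.87 ± 0.561 CPM in the long knockdown (n = 4 each). It stood at 716 ± 174 CPM in the overexpression (n = 3), and at 9.01 ± 1.02 CPM in the libraries labelled total knockdown against 7.02 ± 0.913 CPM in their controls (n = 2 each), so that, if this gene is the target, the last label was not borne out at the gene level. Smooth muscle markers were uneven: of 8, Acta2 and Smtn stood at 212 and 46.7 CPM in untreated controls of run 3, the other 6 at 2.50 CPM or less, Myh11 and Cnn1 among them at 0.0639 and 0.0249 CPM, and the sum over the 8 ran from 185 to 335 CPM over the groups. The fibroblast markers Col1a1 and Dcn stood at 2149 and 1592 CPM there, and the sum of 6 such markers ran from 2709 to 3788 CPM. Of 10 macrophage markers, Ptprc, Adgre1, Cd52, Tyrobp and Mrc1 were at 0 in those controls, and their sum, from 9.06 to 19.8 CPM over the groups, was mostly Cd14. The sum of 6 endothelial markers did not exceed 8.05 CPM in any group. The 6 proliferation markers summed to 137 CPM in untreated controls of run 3, to 1548 CPM with PDGF-BB and to 54.9 CPM in the long knockdown. In run 2 they summed to 29.1 CPM in antisense controls, 97.4 CPM in the labelled total knockdown, 138 CPM in overexpression controls and 231 CPM with overexpression. In bulk RNA, fewer cells of a type and less RNA per cell cannot be told apart.

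In untreated control cells of run 3 the set spanned a wide range of levels per length of exon. Psap, the precursor of the saposins that activate sphingolipid hydrolases, was the highest at 402 ± 12.5 CPM per kb. Laptm4a, a small lysosomal membrane protein, followed at 311 ± 18.9, Sqstm1 at 278 ± 21.1 and Lamp1 at 247 ± 41.5 CPM per kb. The levels of Laptm4a and Sqstm1 did not differ beyond their spread, nor did those of Sqstm1 and Lamp1. Ctsd, an aspartic protease, stood at 174 ± 30.1 CPM per kb. The lowest were Ctsf at 4.33 ± 0.516, Gla at 2.41 ± 0.515, Tfeb at 1.87 ± 0.285, Cln3 at 0.472 ± 0.102 and Ctsk at 0.0780 ± 0.0384 CPM per kb. Among these 5, Gla and Tfeb overlapped in their spread. Together the 33 genes held 0.873 ± 0.0399% of the counts in untreated controls and 0.715 ± 0.0299% with PDGF-BB, and the libraries of these groups did not overlap in that share.

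PDGF-BB in control cells was followed by lower levels of most of the set. Of the 32 genes tested, 17 fell, 5 rose and 10 were not called (edgeR's quasi-likelihood test, called at an adjusted p under 0.05 over all genes). The median log2 fold change was -0.23 over the 32 and -0.02 over all genes. Over all genes 20% were called lower and 23.6% higher (43.6% called in either direction). With the batch as a block 18 fell and 6 rose, beside 26.2% and 28.3% of all genes. The 17 that fell are 53.1% of the genes tested in the set. All 3 autophagy genes fell, as did 4 of 6 membrane proteins and 4 of 6 genes of lipid and peptide processing, while the cathepsins and glycosidases went in both directions and none of the 3 proton pump subunits was called.

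**Figure D1:**
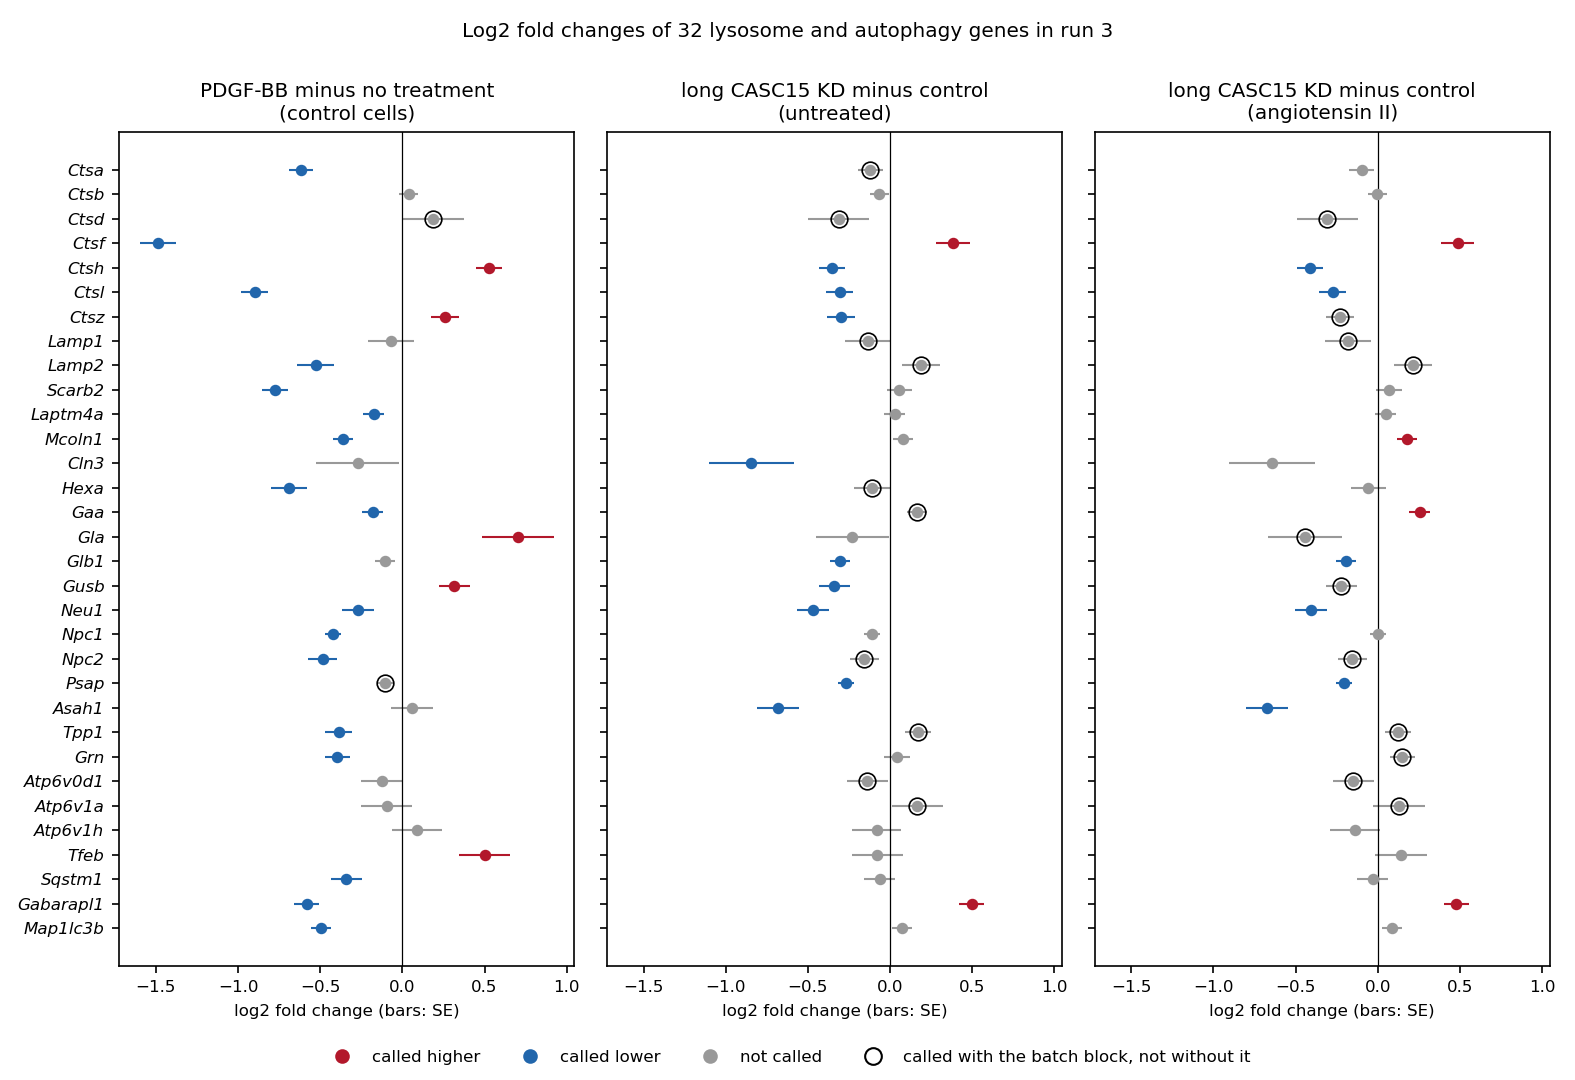
Log2 fold changes (x axis, with bars of 1 SE) of the 32 genes tested in run 3 (y axis) for PDGF-BB and for the long CASC15 knockdown (KD) without and with angiotensin II; red is called higher, blue called lower, grey not called, and a ring marks genes called with the batch as a block and not without it in the same libraries. Most points lie left of 0 with PDGF-BB, where Ctsf is the lowest at -1.49, and the knockdown panels resemble each other, with Ctsf and Gabarapl1 to the right and Asah1 to the left in both.

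Among the cathepsins, Ctsf, a cysteine protease with a cystatin-like domain, changed most. It stood at 22.5, 24.7, 21.7 and 18.4 CPM in the untreated controls of batches P16 to P19 and at 7.07, 8.58, 8.06 and 7.33 CPM with PDGF-BB. The groups did not overlap, and the difference on the log2 scale was -1.49 with an SE of 0.109 (adjusted p = 1.83e-09). Ctsl, a broadly acting cysteine protease, stood at 442, 427, 395 and 489 CPM in the controls. With PDGF-BB it stood at 225, 235, 220 and 261 CPM, below every control, with a log2 fold change of -0.90 ± 0.0817 (adjusted p = 3.43e-08). Ctsa, the carboxypeptidase that protects beta-galactosidase and neuraminidase, fell by 0.62 on the log2 scale (adjusted p = 1.4e-06). Its exons overlap those of Pltp on the other strand by 495 bases, and whether the counting used strand is not given in the sources used here. Ctsh, an aminopeptidase, rose: it stood at 163, 160, 157 and 178 CPM in the controls and at 236, 226, 210 and 275 CPM with PDGF-BB, a log2 fold change of 0.53 ± 0.0794 (adjusted p = 2.25e-05). Ctsz, a carboxypeptidase, rose by 0.26 ± 0.0851 (adjusted p = 0.0187). Ctsb, one of the most abundant cathepsins here, stood at 667, 655, 612 and 627 CPM in the controls and at 656, 667, 635 and 675 CPM with PDGF-BB, and the groups overlapped (adjusted p = 0.605). The strand limit also applies to Ctsb, whose exons overlap those of Fdft1 on the other strand by 774 bases (99262 counts over all libraries, against 431395 for Ctsb). Ctsd stood at 386, 378, 359 and 514 CPM in the controls and at 442, 417, 429 and 580 CPM with PDGF-BB, higher in each of the 4 batches. Its log2 fold change of 0.19 ± 0.186 was not called without a batch term (adjusted p = 0.436) and was called with the batch as a block (adjusted p = 0.000745). Ctsk stood at 0.0339 to 0.162 CPM in the controls and at 0 to 0.263 CPM with PDGF-BB and was not tested.

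Among the membrane proteins, Scarb2, the receptor that carries glucocerebrosidase to lysosomes, changed most. It stood at 269, 280, 253 and 304 CPM in the controls and at 139, 168, 166 and 174 CPM with PDGF-BB. The highest library with PDGF-BB lay well below the lowest control, and the log2 fold change was -0.77 ± 0.0787 (adjusted p = 1.57e-07). Lamp2, which takes part in chaperone-mediated autophagy, fell by 0.53 on the log2 scale (adjusted p = 0.000864). The calcium channel gene Mcoln1 fell by 0.36 (adjusted p = 7.88e-05), and Laptm4a fell by 0.18 (adjusted p = 0.0305). Lamp1, in contrast to Lamp2, stood at 611, 618, 588 and 826 CPM in the controls and at 582, 591, 592 and 756 CPM with PDGF-BB and was not called (log2 fold change -0.07 ± 0.138, adjusted p = 0.719). Within both groups the P19 library was the highest for Lamp1. Cln3, the gene mutated in juvenile Batten disease, stood at 2.73 ± 0.587 and 2.25 ± 0.80 CPM and was not called (adjusted p = 0.408).

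Among the glycosidases, Gla, the alpha-galactosidase deficient in Fabry disease, stood at 7.43, 6.77, 6.93 and 10.4 CPM in the controls. With PDGF-BB it stood at 13, 11.8, 10.4 and 16.3 CPM, with the lowest of these just above the highest control, and its log2 fold change was 0.70 ± 0.218 (adjusted p = 0.0132). Gusb, the beta-glucuronidase, rose by 0.32 ± 0.0941 (adjusted p = 0.0102). Hexa, a subunit of beta-hexosaminidase, fell by 0.69 on the log2 scale (adjusted p = 3.61e-05). Neu1, the sialidase, fell by 0.27 (adjusted p = 0.0292) and Gaa, the acid glucosidase of glycogen breakdown, by 0.18 (adjusted p = 0.0233). Glb1, the beta-galactosidase used as a senescence stain, was not called (log2 fold change -0.10 ± 0.061, adjusted p = 0.181).

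Among genes of lipid and peptide processing, Npc2 and Npc1, which pass cholesterol out of the lysosome, fell by 0.49 and 0.42 on the log2 scale (adjusted p = 0.000166 and 1.42e-06). Exons of Npc1 overlap those of Rmc1 on the other strand by 511 bases (39157 counts over all libraries, against 67016 for Npc1), with the same limit as for Ctsa. Other overlaps of this kind were Ctsl with Gm47123 (1742 bases), Sqstm1 with Mrnip (580), Gabarapl1 with 1700101I11Rik (570) and Cln3 with Apobr (442). Shorter ones were Ctsa with Neurl2 (324 bases), Hexa with Tmem202 (255), Lamp1 with Grtp1 (249) and Atp6v1h with Rgs20 (127). The shortest were Npc1 with Gm15956 (90 bases), Grn with Fam171a2 (68), Map1lc3b with Zcchc14 (58) and Ctsz with Nelfcd (10). On the same strand, exons of Ctsd overlap Gm49369 (808 bases), Ctsl Gm49230 (395) and Glb1 Tmppe (165). Grn, the progranulin gene, fell by 0.40 (adjusted p = 0.00031) and Tpp1, a tripeptidyl peptidase, by 0.39 (adjusted p = 0.000634). Asah1, the acid ceramidase, stood at 346, 303, 318 and 396 CPM in the controls and at 345, 341, 328 and 407 CPM with PDGF-BB, with overlapping groups (adjusted p = 0.739). Psap was lower in each of the 4 batches by a small amount (log2 fold change -0.10 ± 0.0501, adjusted p = 0.104, and 0.0302 with the block).

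Tfeb rose while most of the set fell. It stood at 11.3, 10.9, 12.0 and 8.30 CPM in the controls and at 15.6, 14.4, 14.9 and 15.0 CPM with PDGF-BB. The groups did not overlap, and the log2 fold change was 0.50 ± 0.155 (adjusted p = 0.0129). Sqstm1 stood at 906, 910, 876 and 1035 CPM in the controls and at 714, 740, 704 and 782 CPM with PDGF-BB (log2 fold change -0.34 ± 0.0937, adjusted p = 0.00573). Map1lc3b, which encodes LC3B, stood at 326, 371, 341 and 350 CPM and fell to 237, 253, 252 and 241 CPM (log2 fold change -0.50 ± 0.0613, adjusted p = 1.9e-06). Gabarapl1, of the GABARAP branch, stood at 116, 141, 130 and 132 CPM and fell to 79.4, 89.3, 91.1 and 86.8 CPM (log2 fold change -0.58 ± 0.0762, adjusted p = 4.09e-06). In each of these 3 genes the groups did not overlap. The 3 proton pump subunits Atp6v0d1, Atp6v1a and Atp6v1h ranged from -0.12 to 0.09 in log2 fold change, with adjusted p from 0.445 to 0.666.

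All 22 calls with PDGF-BB were also made, in the same direction, with the block (24 called, 54.5% of all genes) and with the batch P19 libraries left out (23 called, 48.9% of all genes). Leaving out a single library ended the call of 6 of them. Gla was not called without the PDGF-BB library of P19 (adjusted p = 0.074) or the control of P17 (0.0536), and Ctsz and Gusb were likewise not called without the PDGF-BB library of P19 (0.0956 and 0.0934) or the control of P16 (0.0776 and 0.0588) or P17 (0.0731 and 0.0517). Gaa, Laptm4a and Neu1 were not called without the PDGF-BB library of P18 (0.107, 0.112 and 0.127). Gaa and Neu1 were not called without the control of P18 (0.0798 and 0.132), nor Neu1 without the control of P17 (0.0517), Laptm4a without the control of P19 (0.172), or Laptm4a and Neu1 without the PDGF-BB library of P17 (0.0598 and 0.0779). With PDGF-BB 6 of 6 proliferation markers rose, and of 5 fibroblast markers tested 3 fell and 1 rose, with sums of 3788 CPM in controls and 3719 CPM with PDGF-BB. Within that sum Dcn fell from 1592 ± 102 to 664 ± 109 CPM, Pdgfra from 15.1 ± 6.12 to 3.10 ± 0.954 CPM and Lum from 0.924 ± 0.292 to 0.171 ± 0.241 CPM, while Col1a1 rose from 2149 ± 266 to 3016 ± 516 CPM. Of 7 smooth muscle markers tested, Acta2 fell, from 212 ± 12.9 to 110 ± 10.8 CPM, and Smtn rose, from 46.7 ± 3.32 to 95.5 ± 5.52 CPM, both without overlap, and the other 5 were not called. The endothelial marker Pecam1 fell, from 1.19 ± 0.526 to 0.372 ± 0.227 CPM. The part of these markers in these results was not tested.

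**Figure D2:**
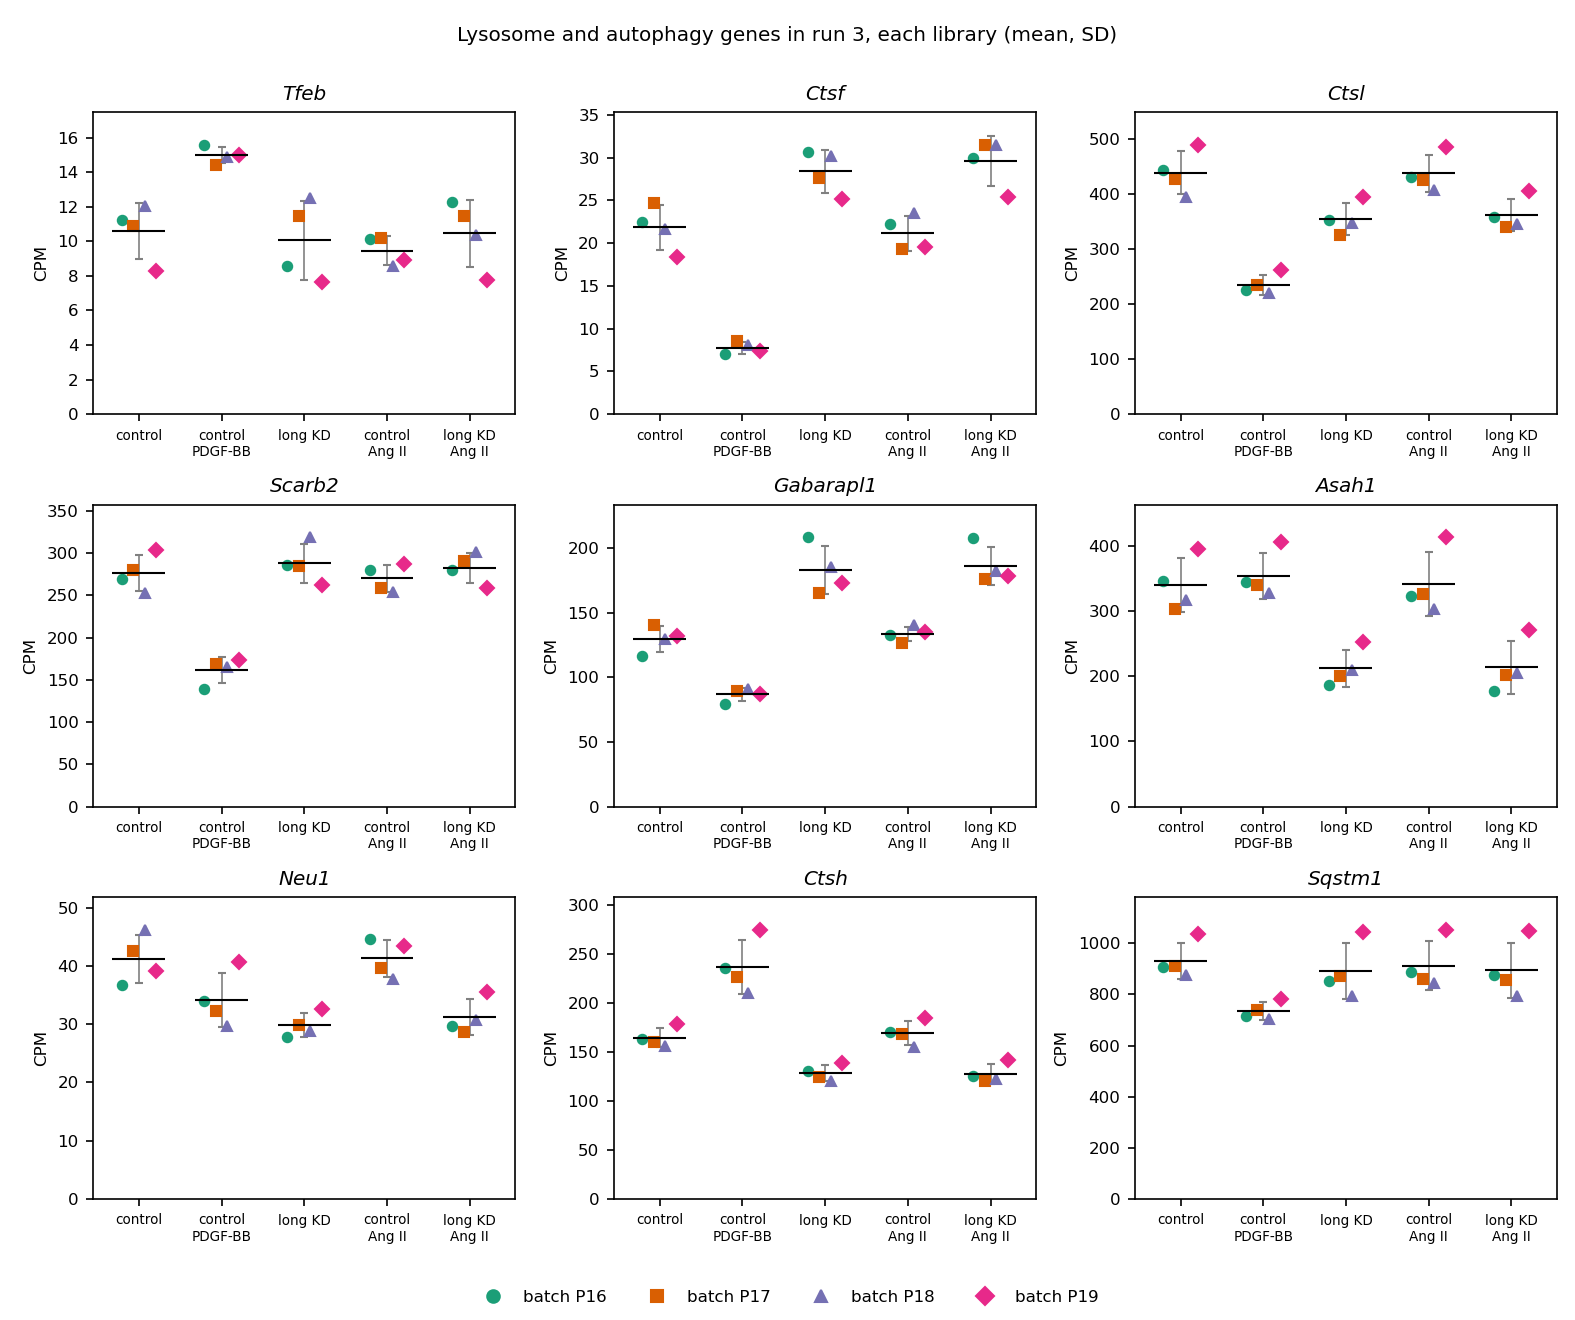
CPM (y axis, from 0) of 9 genes in each library of run 3 by group (x axis; KD is knockdown, Ang II is angiotensin II); points are libraries marked by batch, lines are means and bars are SD (n = 4). Tfeb is highest with PDGF-BB, Ctsf, Ctsl, Scarb2, Gabarapl1 and Sqstm1 are lowest there, and Asah1 and Ctsh are lowest in both knockdown groups.

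A wider list of 169 genes of the same pathways, chosen by function, was measured in the same fit. Of the 160 tested with PDGF-BB, 59 fell (36.9%, beside 20% of all genes) and 17 rose (10.6%, beside 23.6%), with a median log2 fold change of -0.13. By subgroup, 16 fell and 4 rose of 35 other hydrolases, 9 and 1 of 21 other membrane proteins, 3 and 2 of 14 other proton pump subunits, and 5 and 1 of 11 genes of lysosomal sorting. Among the rest, 5 fell and 3 rose of 21 genes of nutrient sensing, 9 and 3 of 21 of autophagosome initiation, 4 and 2 of 13 of conjugation, 3 and 1 of 10 receptors, 5 and 0 of 12 of fusion with the lysosome, and 0 of 2 cystatins were called. Calcoco1, an autophagy receptor of the endoplasmic reticulum, fell from 264 ± 10.6 to 115 ± 12.4 CPM (log2 fold change -1.20 ± 0.065, adjusted p = 3.7e-11). Cpq, a lysosomal carboxypeptidase, fell from 68.9 ± 6.06 to 37.5 ± 4.91 CPM (adjusted p = 9.9e-08). Tollip, an adaptor for ubiquitinated cargo, rose from 65.2 ± 3.14 to 116 ± 23.4 CPM (adjusted p = 1.1e-05). Tmem41b, a scramblase of autophagosome initiation, rose from 35.1 ± 5.22 to 54.1 ± 9.30 CPM (adjusted p = 0.00322).

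Knockdown of long CASC15 in untreated cells was followed by a smaller number of calls in the set. Of 32 genes, 9 fell (Asah1, Cln3, Ctsh, Ctsl, Ctsz, Glb1, Gusb, Neu1 and Psap) and 2 rose (Gabarapl1 and Ctsf). Over all genes 12.8% were called lower and 12.3% higher (25% in either direction), against 28.1% and 6.25% of the set. The median log2 fold change was -0.11 in the set and 0.02 over all genes. With the batch as a block 15 fell and 6 rose, with 20.6% and 20% over all genes (40.6% in either direction). With the batch P19 libraries left out 15 fell and 5 rose, with 40% of all genes called in either direction. All 11 calls were made in all 3 fits. Of 6 proliferation markers 1 fell here (5 with the block) and of 5 fibroblast markers 3 rose, Pdgfra among them (15.1 ± 6.12 against 47.4 ± 24.4 CPM), and 1 fell. Of 7 smooth muscle markers tested, Smtn rose from 46.7 ± 3.32 to 70.8 ± 5.01 CPM and Myh11 from 0.0639 ± 0.0479 to 0.939 ± 0.526 CPM, and Myocd fell from 2.50 ± 0.685 to 0.995 ± 0.487 CPM, all without overlap. The endothelial marker Vwf rose from 0.144 ± 0.131 to 0.688 ± 0.232 CPM. The part of all these markers in the knockdown results was not tested.

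Asah1 changed most among members with at least 5 CPM. It stood at 346, 303, 318 and 396 CPM in the controls and at 188, 201, 210 and 253 CPM in the knockdown, with no overlap and a log2 fold change of -0.68 ± 0.128 (adjusted p = 0.000617). Neu1 stood at 36.8, 42.6, 46.3 and 39.1 CPM in the controls and at 27.8, 29.9, 28.9 and 32.6 CPM in the knockdown (log2 fold change -0.47 ± 0.0974, adjusted p = 0.00141). Ctsh stood at 131, 124, 120 and 139 CPM in the knockdown, below the 157 to 178 CPM of the controls (log2 fold change -0.36 ± 0.0796, adjusted p = 0.0025). These 3 genes encode enzymes of the lysosomal lumen that act on ceramide, sialic acid and peptides. Glb1, whose product works in a complex with those of Neu1 and Ctsa, fell by 0.30 on the log2 scale (adjusted p = 0.00104), and Psap, whose saposins assist ceramidase, fell by 0.27 (adjusted p = 0.000526). Ctsl stood at 352, 325, 346 and 395 CPM in the knockdown against 395 to 489 CPM in the controls (log2 fold change -0.31 ± 0.081, adjusted p = 0.00831). Ctsz and Gusb fell by 0.30 and 0.34 (adjusted p = 0.0132 and 0.0113), and both missed the threshold without the knockdown library of P18 (0.0523 and 0.0504). Cln3 fell by 0.84 from 2.73 ± 0.587 to 1.52 ± 0.315 CPM (adjusted p = 0.0214), a call lost without the control of P18 (0.0688) or the knockdown library of P16 (0.0806). The strand limit applies to Cln3 too. Its exons overlap those of Apobr on the other strand by 442 bases (412 counts over all libraries, against 1174 for Cln3).

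The 2 genes that rose were Gabarapl1, at 208, 165, 185 and 173 CPM against 116 to 141 CPM in the controls (log2 fold change 0.50 ± 0.0757, adjusted p = 6.55e-05), and Ctsf, at 30.6, 27.6, 30.2 and 25.2 CPM against 18.4 to 24.7 CPM (0.38 ± 0.102, adjusted p = 0.00911). Exons of Gabarapl1 overlap an antisense gene, 1700101I11Rik, by 570 bases, which held 368 counts over all libraries against 96154 for Gabarapl1. Tfeb stood at 8.59, 11.5, 12.5 and 7.64 CPM in the knockdown, overlapping the controls (log2 fold change -0.08 ± 0.157, adjusted p = 0.756). Sqstm1 stood at 854, 873, 793 and 1045 CPM (adjusted p = 0.658), Map1lc3b at 373, 340, 359 and 388 CPM (adjusted p = 0.409), and Ctsb at 612, 607, 584 and 642 CPM (adjusted p = 0.426). In all 4 of these genes the knockdown libraries overlapped the controls. Lamp1 stood at 576, 555, 532 and 743 CPM and Ctsd at 287, 297, 280 and 454 CPM, each below its control in 4 of 4 batches. Neither was called without a batch term (adjusted p = 0.51 and 0.235), and both were called lower with the block (Lamp1 log2 fold change -0.13, adjusted p = 0.0123; Ctsd -0.33, 2.29e-06) and with the batch P19 libraries left out (0.0298 and 9.17e-07). Ctsd was also called without the knockdown library of P19 alone (adjusted p = 0.039). Ctsk stood at 0.212 to 0.514 CPM in the knockdown and was not tested. The other genes added by the block were Ctsa, Hexa, Npc2 and Atp6v0d1, which were lower, and Lamp2, Gaa, Tpp1 and Atp6v1a, which were higher. Leaving out the batch P19 libraries also added these genes except Atp6v0d1 and Gaa, and it added Npc1.

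Under angiotensin II the knockdown was compared with controls that share no library with the untreated comparison. Of 32 genes, 6 fell (Asah1, Ctsh, Neu1, Ctsl, Psap and Glb1) and 4 rose (Ctsf, Gabarapl1, Gaa and Mcoln1), while 13.3% of all genes were called lower and 13.4% higher (26.7% in either direction). With the block 13 fell and 8 rose, against 20.9% and 20.4% of all genes (41.3% in either direction), and with the batch P19 libraries left out 12 fell and 8 rose (39.9% of all genes called). The 6 genes that fell had all fallen in the untreated comparison, and 2 of the 4 that rose, Ctsf and Gabarapl1, had risen there. So 8 of the 11 (72.7%) and 8 of the 10 (80%) were called in the same direction in both arms, and 0 were called in opposite directions. Over all genes 3028 were called in the same direction in both arms, which is 80% of the 3783 called in untreated cells and 75.1% of the 4033 called under angiotensin II, and 1 in opposite directions. With the block 18 of the 21 called in each arm (85.7%) were shared in direction and 0 were opposite, beside 81.4% and 80% of the genes called over the whole table, with 1 opposite. The shares in the set were near those of all genes. Proliferation markers summed to 155 CPM in controls under angiotensin II and to 51.5 CPM in the knockdown, where 2 of 6 fell (6 with the block). Of 5 fibroblast markers tested, Pdgfra and Col3a1 rose and Col1a1 fell, with Pdgfra at 13.8 ± 6.34 against 47.2 ± 21.8 CPM. Of 7 smooth muscle markers tested, Smtn, at 50.0 ± 4.68 against 73.9 ± 10.2 CPM, and Myh11 rose and Myocd fell. The 6 endothelial markers summed to 1.70 CPM in controls under angiotensin II and to 3.15 CPM in the knockdown. The part of these markers in the results was not tested.

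Asah1 stood at 323, 326, 304 and 414 CPM in the angiotensin II controls and at 177, 202, 206 and 272 CPM in the knockdown (log2 fold change -0.67 ± 0.128, adjusted p = 0.000661). Ctsh stood at 170, 168, 155 and 185 CPM and at 126, 120, 122 and 142 CPM (-0.41 ± 0.0797, adjusted p = 0.000716). Neu1 stood at 44.6, 39.6, 37.8 and 43.4 CPM and at 29.7, 28.8, 30.8 and 35.6 CPM (-0.40 ± 0.0976, adjusted p = 0.00425). The groups of these 3 genes did not overlap. Ctsf stood at 22.2, 19.3, 23.5 and 19.5 CPM in the controls and at 30.0, 31.5, 31.5 and 25.4 CPM in the knockdown (0.49 ± 0.103, adjusted p = 0.00153). Gabarapl1 stood at 133, 126, 140 and 135 CPM and at 207, 176, 182 and 178 CPM (0.48 ± 0.0758, adjusted p = 0.000102), and Gaa at 246, 224, 219 and 233 CPM and at 297, 288, 259 and 257 CPM (0.25 ± 0.0623, adjusted p = 0.00477). In these 3 genes every knockdown library lay above every control. Gaa also lay higher without overlap in the untreated arm, where it was called with the block (adjusted p = 0.0069) and not without a batch term (0.0589).

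Ctsl fell from 431, 426, 406 and 486 CPM to 357, 339, 345 and 405 CPM under angiotensin II (log2 fold change -0.27 ± 0.081, adjusted p = 0.0162). Its call was lost without the control of P19 (0.0899) or the knockdown library of P17 (0.0583) or P18 (0.06). Mcoln1 rose by 0.18 ± 0.0614 (adjusted p = 0.0355), and this was not called without the control of P16 (0.0671), P17 (0.136) or P19 (0.0916), nor without the knockdown library of P16 (0.089), P18 (0.0504) or P19 (0.0783). Glb1 fell by 0.19 (adjusted p = 0.0242), which was not called without the control of P19 (0.0916) or the knockdown library of P16 (0.0513) or P18 (0.0866). Tfeb stood at 10.1, 10.2, 8.58 and 8.94 CPM in the controls and at 12.3, 11.4, 10.4 and 7.77 CPM in the knockdown, and the groups overlapped (log2 fold change 0.14 ± 0.158, adjusted p = 0.54). Sqstm1 stood at 889, 862, 845 and 1054 CPM and at 875, 856, 795 and 1048 CPM (adjusted p = 0.844), and Ctsb at 640, 613, 568 and 665 CPM and at 629, 640, 569 and 644 CPM (adjusted p = 0.98). Map1lc3b stood at 371, 344, 322 and 359 CPM and at 384, 352, 351 and 396 CPM (adjusted p = 0.313). These autophagy and protease genes thus overlapped between groups in both arms. Lamp1 stood at 620, 632, 598 and 851 CPM and at 546, 554, 574 and 710 CPM, and Ctsd at 387, 380, 355 and 548 CPM and at 304, 305, 292 and 448 CPM. Both were lower in 4 of 4 batches. Neither was called without a batch term (adjusted p = 0.364 and 0.241), and both were called with the block (0.00166 and 5.48e-06) and with the batch P19 libraries left out (0.0148 and 1.37e-05). Ctsk stood at 0 to 0.098 CPM in the controls and at 0.0513 to 0.486 CPM in the knockdown. The block also added Ctsz, Gla, Gusb, Npc2 and Atp6v0d1, which were lower, and Lamp2, Tpp1, Grn and Atp6v1a, which were higher. Leaving out the batch P19 libraries added the same genes except Atp6v0d1.

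In the wider list of 160 tested genes, 14 fell and 18 rose with the knockdown in untreated cells, 20% of the list beside 25% of all genes (32 and 35 with the block, beside 40.6% of all genes). Under angiotensin II 18 fell and 29 rose, 29.4% beside 26.7% (34 and 40 with the block, beside 41.3%). Without the control of P17 that total of 47 was 30. These shares lay near those over all genes. By subgroup in untreated cells, 8 fell and 1 rose of 35 other hydrolases, 2 and 4 of 21 other membrane proteins, 0 and 2 of 11 sorting genes, 0 and 4 of 21 nutrient sensing genes and 1 and 3 of 21 initiation genes. Of the rest, 0 fell and 1 rose of 13 conjugation genes, 1 and 2 of 10 receptors and 2 and 1 of 12 fusion genes, and 0 of 14 other proton pump subunits and 0 of 2 cystatins were called. Manba, the beta-mannosidase, fell from 69.8 ± 3.14 to 50.4 ± 2.7 CPM (adjusted p = 1.04e-05) and Man2b2, an alpha-mannosidase, from 105 ± 7.10 to 76.7 ± 12.2 CPM (adjusted p = 0.00291). Cpq rose from 68.9 ± 6.06 to 99.0 ± 6.58 CPM (adjusted p = 0.000118). Fundc1, a mitophagy receptor, rose from 8.37 ± 3.13 to 14.1 ± 2.13 CPM with overlapping groups (adjusted p = 0.0433). Under angiotensin II, Tsc1, an inhibitor of mTORC1, rose from 51.3 ± 3.13 to 81.8 ± 4.15 CPM (adjusted p = 1.57e-07) and Slc38a9, the lysosomal arginine sensor, from 21.8 ± 1.21 to 32.5 ± 1.84 CPM (adjusted p = 1.77e-05). Man2b2 fell there too, from 106 ± 10.6 to 80.0 ± 8.48 CPM (adjusted p = 0.00633), and Ostm1, a partner of the chloride transporter ClC-7, fell from 74.1 ± 10.8 to 56.0 ± 9.60 CPM with overlapping groups (adjusted p = 0.0412).

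PDGF-BB and the knockdown under angiotensin II were measured in libraries that do not overlap. Of the 17 genes that fell with PDGF-BB, 4 rose in that knockdown (Ctsf, Gabarapl1, Gaa and Mcoln1), 2 fell (Ctsl and Neu1) and 11 were not called. Over all genes, 22.6% of the 3016 that fell with PDGF-BB rose in the knockdown and 10.7% fell, beside 23.5% and 11.8% in the set. Of the 5 that rose with PDGF-BB, Ctsh fell in the knockdown and the other 4 were not called, while over all genes 22.2% of the 3570 that rose with PDGF-BB fell and 10.2% rose. Glb1, Psap and Asah1 fell in the knockdown and were not called with PDGF-BB, and 7 genes were called in neither. These counts changed when the batch was a block. Of 18 genes that then fell with PDGF-BB, 7 rose in the knockdown, Lamp2, Tpp1 and Grn in addition to the 4, and 4 fell (Ctsl, Neu1, Npc2 and Psap). Over all genes 33.6% of the 3957 that fell with PDGF-BB rose and 14.7% fell. Of 6 that rose with PDGF-BB in that fit, 5 fell in the knockdown (Ctsh, Ctsz, Gusb, Gla and Ctsd) and Tfeb was not called, while over all genes 36.3% of the 4281 that rose with PDGF-BB fell. Of the 8 not called with PDGF-BB, Glb1, Asah1, Lamp1 and Atp6v0d1 fell in the knockdown, Atp6v1a rose and 3 were called in neither. Over all genes, 14.9% of the 6865 not called with PDGF-BB in that fit fell, 16.9% rose and 68.2% were called in neither.

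**Figure D3:**
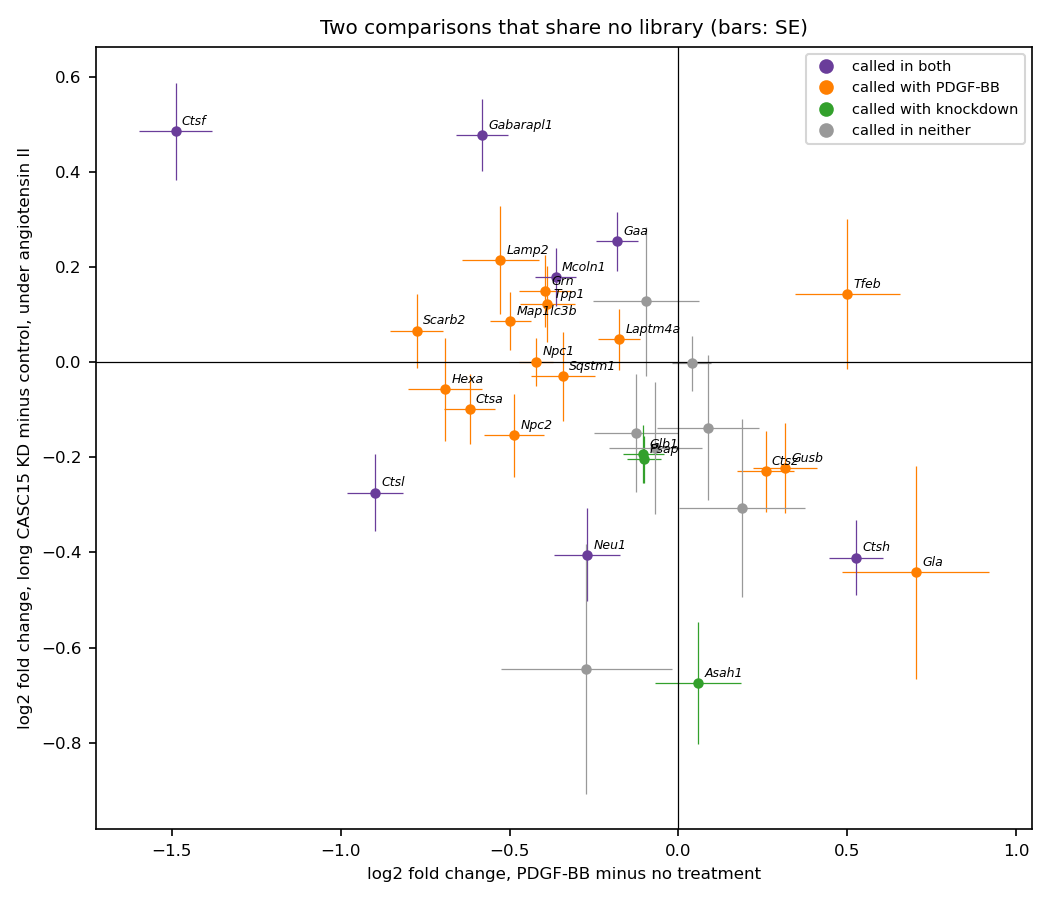
Log2 fold change with PDGF-BB (x axis) against that with the long CASC15 knockdown (KD) under angiotensin II (y axis) for 32 genes, with bars of 1 SE; purple genes were called in both, orange with PDGF-BB, green with the knockdown and grey in neither. Ctsf and Gabarapl1 lie at the upper left (-1.49 and 0.49, -0.58 and 0.48), Ctsh at the lower right (0.53 and -0.41), Ctsl and Neu1 at the lower left.

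PDGF-BB and the untreated knockdown share the 4 untreated controls, so their difference was tested by comparing their libraries directly. Of 32 genes, 16 were higher and 9 lower in the knockdown than with PDGF-BB, while 29% and 30.1% of all genes were (59.1% in either direction). With the block 29 were called (66% of all genes), the 25 and Ctsb, Neu1 and Atp6v1h, which were lower, and Atp6v1a, which was higher. The largest difference was in Ctsf, at 28.4 ± 2.54 CPM in the knockdown and 7.76 ± 0.688 CPM with PDGF-BB (log2 fold change 1.87 ± 0.109, adjusted p = 4.85e-11). Gabarapl1 stood at 183 ± 18.9 and 86.6 ± 5.16 CPM (1.08 ± 0.0767, adjusted p = 5.62e-10) and Scarb2 at 288 ± 23.5 and 162 ± 15.5 CPM (0.83 ± 0.0788, adjusted p = 2.73e-08). Gla was lower in the knockdown, at 6.75 ± 2.20 against 12.9 ± 2.53 CPM (-0.93 ± 0.222, adjusted p = 0.00124), as were Ctsh, at 129 ± 8.34 against 237 ± 27.6 CPM (-0.88 ± 0.080, adjusted p = 1.53e-08), and Asah1, at 213 ± 28.6 against 355 ± 35.2 CPM (-0.74 ± 0.129, adjusted p = 6.47e-05). In all 6, which were picked for their large differences, the groups did not overlap. Tfeb was also lower in the knockdown (-0.58 ± 0.156, adjusted p = 0.00344). Ctsl, which fell in both comparisons, fell further with PDGF-BB (0.59 ± 0.0814, adjusted p = 3.5e-06), while for Neu1 the difference was not called (-0.20 ± 0.0979, adjusted p = 0.0918, and 0.0467 with the block). The call of Ctsd, lower in the knockdown (-0.50 ± 0.187, adjusted p = 0.0276), was lost without the PDGF-BB library of P19 (0.133) or the knockdown library of P16 (0.0943), P17 (0.0721) or P18 (0.0943). Laptm4a and Sqstm1 lost theirs without the PDGF-BB library of P18 (0.0652 and 0.0767), Sqstm1 without the knockdown library of P19 (0.0569) and Psap without that of P18 (0.0576). In the wider list 70 genes were higher and 28 lower of 160 (43.8% and 17.5%, beside 29% and 30.1% of all genes). Calcoco1 stood at 293 ± 4.81 against 115 ± 12.4 CPM (adjusted p = 5.35e-12) and Cpq at 99.0 ± 6.58 against 37.5 ± 4.91 CPM (adjusted p = 1.14e-10), both higher in the knockdown. Tollip stood at 56.6 ± 6.45 against 116 ± 23.4 CPM (adjusted p = 3.54e-07) and Galns, a sulfatase of keratan sulfate, at 5.93 ± 1.23 against 11.2 ± 1.11 CPM (adjusted p = 2.88e-05), both lower.

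No gene of the set was called for angiotensin II in control cells, for angiotensin II in knockdown cells or for the difference of the knockdown between the treatments (edgeR's quasi-likelihood test). Over all genes the test called 0% in each. For the set the count at an unadjusted p under 0.05 was 0 in each, and that count over all genes is not given here. DESeq2 also called 0 in the set. Over all genes it called 1 for angiotensin II in control cells and 2 for the difference of the knockdown. These counts are not read as a trait of the set. Log2 fold changes ran from -0.16 to 0.14 in control cells and from -0.07 to 0.10 in knockdown cells.

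Calls were also counted by promoter, as a description of 27 genes that had a promoter and were tested. With PDGF-BB the 12 genes with CACGTG in the promoter had a median log2 fold change of -0.15, with 5 lower, 1 higher and 6 not called, and the 15 without it -0.39, with 11 lower, 3 higher and 1 not called. Over all tested genes that had a promoter, 22.6% were lower and 27.6% higher of the 1201 with CACGTG, and 20.3% and 27.1% of the 9132 without it, with medians of 0.02 and 0.02. With the knockdown in untreated cells the medians in the set were -0.14 (3 lower, 1 higher) and -0.06 (4 lower, 1 higher), beside 14.5% lower and 13.2% higher with CACGTG and 14% and 13.4% without it over those genes. Ctsf and Gla, whose promoters are printed above, both hold CACGTG and went in opposite directions with PDGF-BB, and Lamp1, with 4 copies, was not called.

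In run 2 edgeR's quasi-likelihood test, with its filter, all 4 groups and no batch term, called no gene of the set. With no filter it called Gla with overexpression, Ctsd and Ctsk in the labelled total knockdown and Atp6v1h between the controls, and with only the groups compared it called Ctsd and Ctsk. Over all genes, no filter gave 1363, 1325 and 1106 calls for overexpression, labelled total knockdown and controls, in place of 253, 317 and 181. The fit of only the groups compared gave 1079 for the labelled total knockdown. Overexpression of total CASC15 gave 0 of 33 (1.65% of all genes called, 1.09% higher and 0.554% lower), with 3 (9.09%) at an unadjusted p under 0.05, beside 15% of all genes, and 1, Gla, called by DESeq2, beside 732 of 15541 genes (4.71%). Gla stood at 9.14, 8.47 and 13.6 CPM in the overexpression controls of batches P17 to P19 and at 13.7, 21.1 and 26.7 CPM in the overexpression. It was higher in 3 of 3 batches, with a lowest value just above the highest control and a log2 fold change of 0.98 ± 0.263 (adjusted p = 0.112). With the block 4 genes were called, all higher (17.7% of all genes, 9.4% higher and 8.33% lower): Gla (adjusted p = 0.00213), Npc2 (0.00628), Ctsz (0.0366) and Sqstm1 (0.0438). Gla was also called without the overexpression control of P19 (adjusted p = 0.0325) and with the batch P19 libraries left out, where 5.57% of all genes were called. Tfeb stood at 15.4, 15.5 and 17.6 CPM in the overexpression controls and at 20.2, 19.4 and 21.3 CPM with overexpression. Its groups did not overlap, and its log2 fold change of 0.33 ± 0.163 was not called (adjusted p = 0.387, and 0.1 with the block). Sqstm1 stood at 1361, 1222 and 1130 CPM in the controls and at 1595, 1471 and 1393 CPM, also without overlap. The other genes followed by library overlapped between these groups. Ctsd stood at 464, 495 and 666 CPM and at 567, 638 and 707 CPM, and Ctsb at 836, 939 and 1056 CPM and at 976, 1171 and 1074 CPM. Lamp1 stood at 779, 786 and 1091 CPM and at 887, 917 and 1042 CPM, and Ctsl at 306, 281 and 267 CPM and at 318, 326 and 256 CPM. Gabarapl1 stood at 234, 187 and 163 CPM and, lower in each batch, at 194, 168 and 145 CPM. Map1lc3b stood at 416, 343 and 397 CPM and at 420, 408 and 418 CPM, and Ctsk at no more than 0.227 CPM in any of the 6 libraries.

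**Figure D4:**
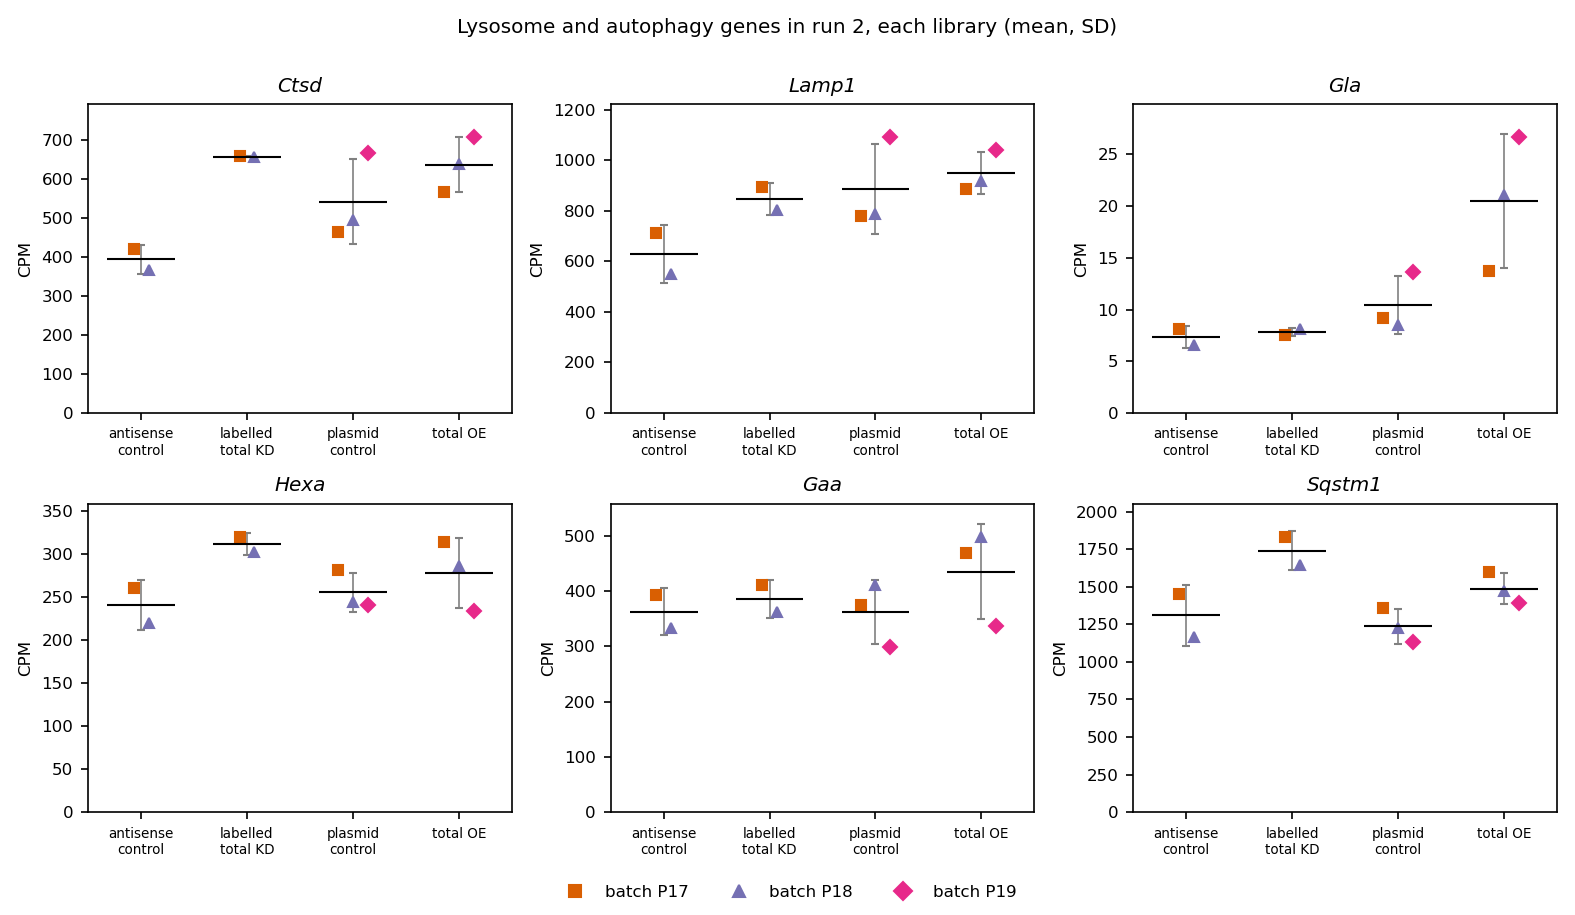
CPM (y axis, from 0) of 6 genes in each library of run 2 by group (x axis; KD is knockdown, OE is overexpression); points are libraries marked by batch, lines are means and bars are SD (n = 2 for the antisense groups and n = 3 for the others). Ctsd, Lamp1, Hexa and Sqstm1 lie higher in both libraries labelled total knockdown than in both antisense controls, and Gla lies higher with overexpression, at 13.7 to 26.7.

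The libraries labelled total knockdown gave 0 of 33 against their antisense controls (2.07% of all genes called), with 5 (15.2%) at an unadjusted p under 0.05, beside 12.9% of all genes, and 2, Ctsd and Ctsk, called by DESeq2, beside 661 of 18189 genes (3.63%). Ctsd stood at 421 and 367 CPM in the controls and at 659 and 657 CPM in the labelled knockdown (log2 fold change 0.74 ± 0.19, adjusted p = 0.089). Ctsk stood at 0.0891 and 0.198 CPM and at 1.5 and 1.61 CPM, from few reads (adjusted p = 0.053). With the block 5 genes were called, all higher (14.4% of all genes, 8.76% higher and 5.63% lower): Ctsd (adjusted p = 0.0015), Ctsk (0.00608), Sqstm1 (0.0172), Hexa (0.0211) and Lamp1 (0.0371). Sqstm1 stood at 1454 and 1165 CPM in the controls and at 1833 and 1647 CPM, Lamp1 at 711 and 549 CPM and at 893 and 803 CPM, without overlap. Ctsb stood at 818 and 743 CPM and at 917 and 824 CPM, without overlap and not called (adjusted p = 0.766). Tfeb stood at 17.2 and 15.7 CPM and at 20.2 and 13.1 CPM, Ctsl at 285 and 227 CPM and at 296 and 274 CPM, Gabarapl1 at 256 and 204 CPM and at 261 and 169 CPM, and Map1lc3b at 429 and 352 CPM and at 458 and 378 CPM. These 4 overlapped between the groups and were not called. Control plasmid and control antisense libraries, which differ in what was transfected, gave 0 calls in the set (1.18% of all genes). There 7 (21.2%) were at an unadjusted p under 0.05, beside 9.41% of all genes, 0 were called by DESeq2 (343 of 16071 genes, 2.13%) and 1, Gusb lower, with the block (adjusted p = 0.00652, 2.99% of all genes). In the wider list of 161 tested genes, overexpression gave 0 calls, the labelled knockdown 1 and the control comparison 0, against 27, 19 and 2 when the batch was a term. In that fit 6 of 6 proliferation markers were also higher with overexpression and in the labelled knockdown. In the labelled knockdown the 6 endothelial markers summed to 8.05 CPM against 3.35 CPM in its controls, the 10 macrophage markers to 14.5 against 9.06 CPM, the 8 smooth muscle markers to 205 against 185 CPM and the 6 fibroblast markers to 2709 against 3027 CPM. Among them Myh11 stood at 5.49 ± 1.67 against 0.989 ± 0.138 CPM and Csf1r at 2.89 ± 2.31 against 0.141 ± 0.0103 CPM, both called without a batch term (adjusted p = 0.0239 and 0.0262). With overexpression Cd14 stood at 18.8 ± 2.06 against 10.7 ± 0.403 CPM (adjusted p = 0.0262). The part of these markers in the results was not tested.

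Batch P19 stood apart in much of the set. In all 5 groups of run 3 its library was the highest of the 4 for 17 of the 32 genes, a share set beside 11.7% of all 15103 genes tested, and it was the lowest in all 5 for 0 genes, beside 11% of all genes. The ratio of the P19 library to the mean of the other 3, as a median over the groups, was 1.47 for Gla, 1.47 for Ctsd, 1.38 for Atp6v1a and 1.34 for Lamp1. It was 0.854 for Ctsf and 0.729 for Tfeb, the lowest of the 32. Its library also had the lowest mitochondrial share of counts in each of the 5 groups (1.73% to 2.65%, beside 2.59% to 3.33% in the other 15 libraries), the lowest correlation with its own group and the lowest TMM factor. The genes added to the knockdown calls by the block and by leaving out P19 include Ctsd, Lamp1 and Atp6v1a, whose P19 libraries lie far from the rest of their group. What the batch label stands for is not given in the sources used here, and its part in the levels was not tested beyond these fits.

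**Figure D5:**
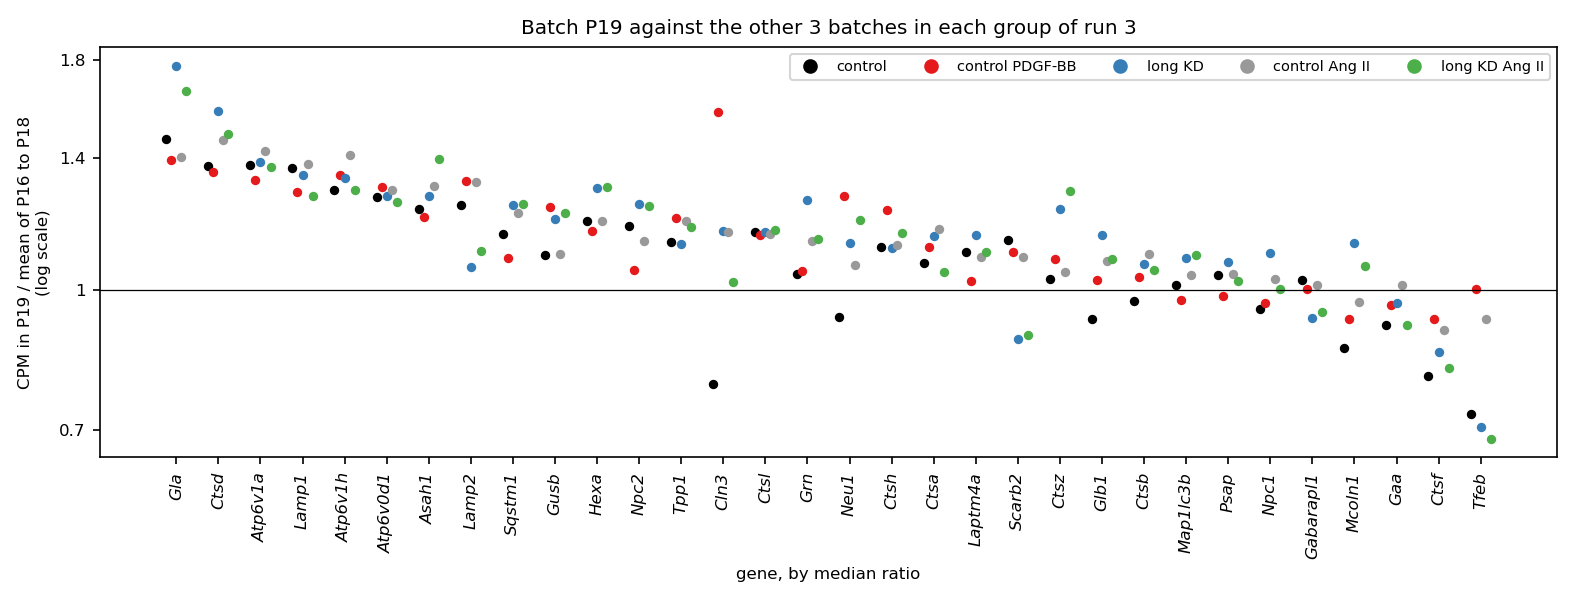
Ratio of the batch P19 library to the mean of the P16 to P18 libraries (y axis, log scale) in each of the 5 groups of run 3 (colours; KD is knockdown, Ang II is angiotensin II) for 32 genes ordered by their median ratio (x axis). Gla, Ctsd, Atp6v1a and Lamp1 lie above 1 in all 5 groups, and Ctsf lies below 1 in all 5.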

How the data were processed

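The authors deposited RSEM expected counts per gene, not scaled to depth, in 1 table for 30 libraries. Per the submitters' processing notes the tools were STAR 2.7.11b and RSEM 1.3.1, with builds GRCm39 and mm10 named without a role. The annotation and whether counting used strand are not given in the sources used here, and RSEM divides reads shared between genes. Symbols came from GENCODE vM21, which matched 51486 of 78334 identifiers and 98.7% of counts. Titles number CASC15 upward across some replicates, so each library's group came from its library name.

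Expected counts were rounded. Each run was fitted alone with edgeR 4.0.16 in R 4.3.3 (filterByExpr with a minimum count of 10 and minimum total of 15, TMM factors, quasi-likelihood test with robust dispersion, 1 coefficient per group, Benjamini-Hochberg over all genes tested, two-sided, called at an adjusted p under 0.05). All 10 comparisons were adjusted separately. CPM were computed from the rounded counts and library sizes scaled by TMM. Levels per kb divide CPM by the length of merged exons. The labels give each library a batch that corresponds to its replicate number within a run, and this pairs libraries across groups. After group means were removed, same-batch libraries of compared groups correlated across genes at a mean of 0.205 for PDGF-BB, 0.195 and 0.184 for the knockdown arms and 0.499 for overexpression, and other pairs at -0.0653, -0.0603, -0.0559 and -0.236. The tests were tested on simulated data.

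Per-library values are given for Tfeb, Sqstm1, Gabarapl1, Map1lc3b, Lamp1, Ctsd, Ctsb, Ctsl and Ctsk and for the 3 largest called rises and 3 largest called falls of a comparison with a mean of at least 5 CPM. The wider list names its 2 largest called rises and falls. The share of all genes whose groups did not overlap was not counted, so statements of no overlap describe only the genes they name. In run 2, genes called with the block were named after their values were seen, as were Asah1 with PDGF-BB and Gaa in the untreated knockdown. The members and gene lists were chosen with earlier results of these data known. The alternatives were DESeq2 1.42.0, its size factors, no filter, a filter at a mean of 1 CPM, a fit of the compared groups alone, the replicate block, each library left out and, added after seeing the data, all batch P19 libraries left out.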

Additional observations from a re-analysis of the deposited data

Results flagged for a closer look

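In 160 sets of 4 libraries (32 genes in 5 groups of run 3), the highest or lowest library lay far from the rest of its group in 18 (by Dixon's critical value for the gap to the nearest library over the range, which chance passes in about 1 in 20). All 18 were the batch P19 library, and in all 18 it was the highest. Ctsd stood apart in 4 groups, at 548 CPM with angiotensin II in control cells, 580 with PDGF-BB, 448 in the knockdown with angiotensin II and 454 in the untreated knockdown. Lamp1 stood apart at 851, 826, 756 and 710 CPM in the controls with angiotensin II, without treatment and with PDGF-BB and in the knockdown with angiotensin II. Atp6v1a stood apart at 229 and 218 CPM in the controls with angiotensin II and without treatment and at 243 and 245 CPM in the knockdown with and without angiotensin II. Gla stood apart in the knockdown, at 9.17 CPM with and 10.0 CPM without angiotensin II. Hexa stood apart at 254 CPM in untreated controls and Tpp1 at 130 CPM with PDGF-BB. Npc2 and Atp6v0d1 stood apart in the knockdown with angiotensin II, at 409 and 82.2 CPM. The libraries come from 5 groups that share a batch label, so these 18 are not independent. The same count over all genes tested was not made, so the 18 are not read as a trait of the set.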

How the results depend on the processing

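The lowest expected counts in any library were 0 for Ctsk, 20 for Cln3, 97 for Gla, 126 for Ctsf and 144 for Tfeb. With the batch as a replicate block, 21 genes of the set were called in each knockdown arm in place of 11 and 10, 4 in place of 0 with overexpression, 5 in the libraries labelled total knockdown and 1 between the controls of run 2. The block ended no call in the set and added 2 with PDGF-BB and 4 between knockdown and PDGF-BB. With the batch P19 libraries left out, 20 were called in each knockdown arm and 1 with overexpression. DESeq2 called 1 with overexpression and 2 in the labelled total knockdown, the fit without a filter 1, 2 and 1 between the controls, and the fit of only the groups compared 2 in the labelled total knockdown. Leaving out each library in turn gave 18 to 22 calls with PDGF-BB, 9 to 14 and 7 to 13 in the knockdown arms, 23 to 25 between knockdown and PDGF-BB, 0 to 1 with overexpression and 0 for the others. Where a group of 2 loses a library, the lone sample is assumed to vary like the other groups, so the counts for the labelled total knockdown and for the controls of run 2 say nothing about stability. Genes of the wider list called in the knockdown arms were 67 and 74 with the block in place of 32 and 47, 67 and 71 without P19, and 31 under angiotensin II with no filter. Leaving out each library in turn gave 68 to 74 of them with PDGF-BB, 25 to 42 and 30 to 50 in the knockdown arms (the 30 without the control of P17), 86 to 102 between knockdown and PDGF-BB, 0 to 5 with overexpression (the 5 without its control of P19), 0 to 2 in the labelled total knockdown and 0 to 1 between the controls of run 2. In run 2 they were 6, 6, 27, 4 and 1 with overexpression (DESeq2, no filter, block, without P19, mean CPM of at least 1) in place of 0. They were 5, 5, 19 and 3 in the labelled total knockdown (DESeq2, no filter, block, only the groups compared) in place of 1, and 2 and 2 between the controls (no filter, block) in place of 0. Over all genes, the knockdown arms called 6126 and 6238 with the block in place of 3783 and 4033, and 6062 in untreated cells without P19. The controls of run 2 called 343, 1106, 101 and 459 (DESeq2, no filter, only the groups compared, block) in place of 181, and 67 to 277 with a library left out. Over all genes, overexpression called 2721 with the block, 732 by DESeq2, 1363 with no filter, 844 without P19 and 66 with only the groups compared, in place of 253, and 86 to 867 with a library left out. The labelled total knockdown called 2209, 661, 1325 and 1079 (block, DESeq2, no filter, only the groups compared) and 190 at a mean CPM of at least 1, in place of 317; leaving out a library gave 4 to 188. Of 1358 fold changes of named genes under an alternative, 1266 kept direction and call, 51 lost the call, 31 gained it and 10 changed sign, all 10 in values that were not called. Under angiotensin II, Ctsb at 0.0043 with no filter, 0.0063 without P19, 0.0066 and 0.032 without the control of P16 or P19 and 0.035 without the knockdown library of P18 (range with a library left out -0.046 to 0.035), and Sqstm1 at 0.048 without the control of P19 and 0.021 without the knockdown library of P18 (range -0.12 to 0.048). With PDGF-BB they were Lamp1 at 0.075 without the control of P19 (range -0.20 to 0.075) and Ctsb at -0.00048 without the PDGF-BB library of P19 (range to 0.068). In the untreated knockdown it was Tfeb at 0.033 without the knockdown library of P19 (range from -0.20). The cause was not tested. With no filter, Laptm4a and Gaa (PDGF-BB), Mcoln1 and Glb1 (knockdown under angiotensin II) and Ctsd, Glb1 and Psap (knockdown against PDGF-BB) lost their calls. With only the groups compared, Mcoln1, Glb1 and Psap did. CACGTG in only the bases before the start lay in 39.3% of members and 6.86% of all genes.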
